A study of Mus musculus with 5 samples.

Results

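Transcripts of 38 genes were read in mouse cells sorted as hair follicle stem cells, which are normally quiescent cells of the follicle bulge. The genes encode subunits of the Polycomb complexes PRC1 and PRC2 or deubiquitinases of histone H2A. They were chosen by the known roles of their proteins, with earlier results of these data known. The 38 symbols were looked up in the authors' table of 55357 genes, where each was found once. They were grouped by complex into 2 catalytic PRC1 genes, 10 genes of canonical PRC1, 11 of variant PRC1, 4 of the PRC2 core, 6 of PRC2 accessory subunits and 5 of the deubiquitinases and their cofactors. All 38 passed the filter on low counts and were tested.

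Polycomb proteins form complexes that mark histones at silent genes. Polycomb repressive complex 1 (PRC1) ubiquitinates histone H2A, the mark H2AK119ub, through the RING proteins Ring1a (gene Ring1) and Ring1b (gene Rnf2), and PRC2 methylates histone H3 at lysine 27 through Ezh1 or Ezh2. Every PRC1 is built on a PCGF protein. Canonical PRC1 joins Pcgf2 or Bmi1 to a CBX protein, which binds methylated H3, and to a PHC protein, whereas variant PRC1 holds Rybp or Yaf2 in place of the CBX protein. The deubiquitinase Bap1, with an ASXL cofactor, and the deubiquitinase Usp16 remove the ubiquitin again. In skin, Polycomb complexes are known as regulators of epidermal and hair follicle stem cells.

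The 3 PRC1 i2KO libraries came from mice labelled Ring1a-/- and Ring1bflox/flox that carried K15-CrePR1, a Cre recombinase under a keratin 15 promoter that RU-486 activates. The 2 Control libraries came from mice labelled Ring1a-/- and Ring1bflox/flox with no Cre named. Both groups were thus labelled null for Ring1a, and both received RU-486 at 1% on the skin daily for 10 days from postnatal day 50. Skin was taken 15 days after the last treatment, at day 75, and the sort kept cells that were EpCAM+ and CD34+, high for α6-integrin and Sca1-. Libraries are named here by the number in their titles, which for the controls is 1 and 3. PRC1 i2KO replicates 1, 2 and 3 held 9675996, 21102727 and 18657555 estimated reads, and Control replicates 1 and 3 held 8270419 and 32463173. Whether each library is a separate animal is not stated, and the tests below reflect variation among these 5 libraries, part or all of which may be technical.

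The cells of the 2 groups differed in much more than the Polycomb genes. By edgeR's quasi-likelihood test (adjusted p under 0.05), 5310 of the 15665 genes tested were called (33.9%), with 18.8% of tested genes higher and 15.1% lower in PRC1 i2KO. The level of Cd34, a marker of the sort, was 11.0, 12.3 and 37.2 CPM (reads scaled to the adjusted library total) in PRC1 i2KO. It was 1548 and 1697 CPM in Control, so the sorted cells of PRC1 i2KO carried little transcript of this gene of the sort. The other genes of the sort did not fall with it. Epcam rose (354 to 403 CPM in PRC1 i2KO, 132 and 145 CPM in Control). Itga6, the gene of α6-integrin, did not pass (363 to 411 CPM in PRC1 i2KO, 413 and 464 CPM in Control). Ly6a, the gene of Sca1, did not pass either, at no more than 2.28 CPM in PRC1 i2KO and 0.498 CPM in Control. Of 10 bulge markers 9 fell, and their summed level was 4756, 4955 and 6853 CPM in PRC1 i2KO replicates 1, 2 and 3, against 21570.2 and 20622 CPM in Control. All 14 markers of cycling cells rose, with sums from 654 to 903 CPM in PRC1 i2KO and 114 to 154 CPM in Control. All 7 upper follicle markers, all 7 sebaceous gland markers and all 8 suprabasal markers rose as well. Sums of 8 immune markers were 80.1 to 117 CPM in PRC1 i2KO and 25.8 to 31.4 CPM in Control, with Cd74 and H2-Aa called, Ptprc at most 1.16 CPM and Lyz2 at 0 in every library. The 6 fibroblast markers summed to 32.7 to 33.0 CPM in PRC1 i2KO and 71.8 to 73.8 CPM in Control, with 3 falls and 1 rise, that of Dcn at 0.579 to 3.42 CPM in PRC1 i2KO and at most 0.246 CPM in Control. Of the 6 melanocyte markers, Mitf fell (39.1 to 41.2 CPM in PRC1 i2KO, 151 to 163 CPM in Control), while Dct (12.9 to 17.4 CPM in PRC1 i2KO, 1.60 to 1.99 CPM in Control) and Kit (7.05 to 8.18 CPM in PRC1 i2KO, 0.369 to 1.03 CPM in Control) rose. Pmel and Tyrp1 were higher in every PRC1 i2KO library without passing, and Mlana was at most 0.376 CPM. Changes in the share of cell types and in RNA per cell cannot be told apart in such bulk libraries, and this holds for every result below.

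Of the 38 Polycomb and deubiquitinase genes, 3 rose in PRC1 i2KO, 10 fell and 25 did not pass. The 13 called genes are 34.2% of the members, close to the 33.9% of all tested genes. The members' median log2 fold change was -0.10, against -0.01 over all tested genes, and their median size of change was 0.33, against 0.48. Only Phf1, among the 13 that passed, changed by over 2-fold. The 3 genes that rose were Ezh2, Kdm2b and Bcor, and the 10 that fell were Phf1, Ezh1, Auts2, Phc3, Bmi1, Pcgf3, Scmh1, Rnf2, Rybp and Pcgf2. Levels of the groups did not overlap in 20 of the 38 genes, 7 higher and 13 lower in PRC1 i2KO, a share of members to be read against 59.5% of all tested genes (30.0% higher and 29.4% lower).

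**Figure D1:**
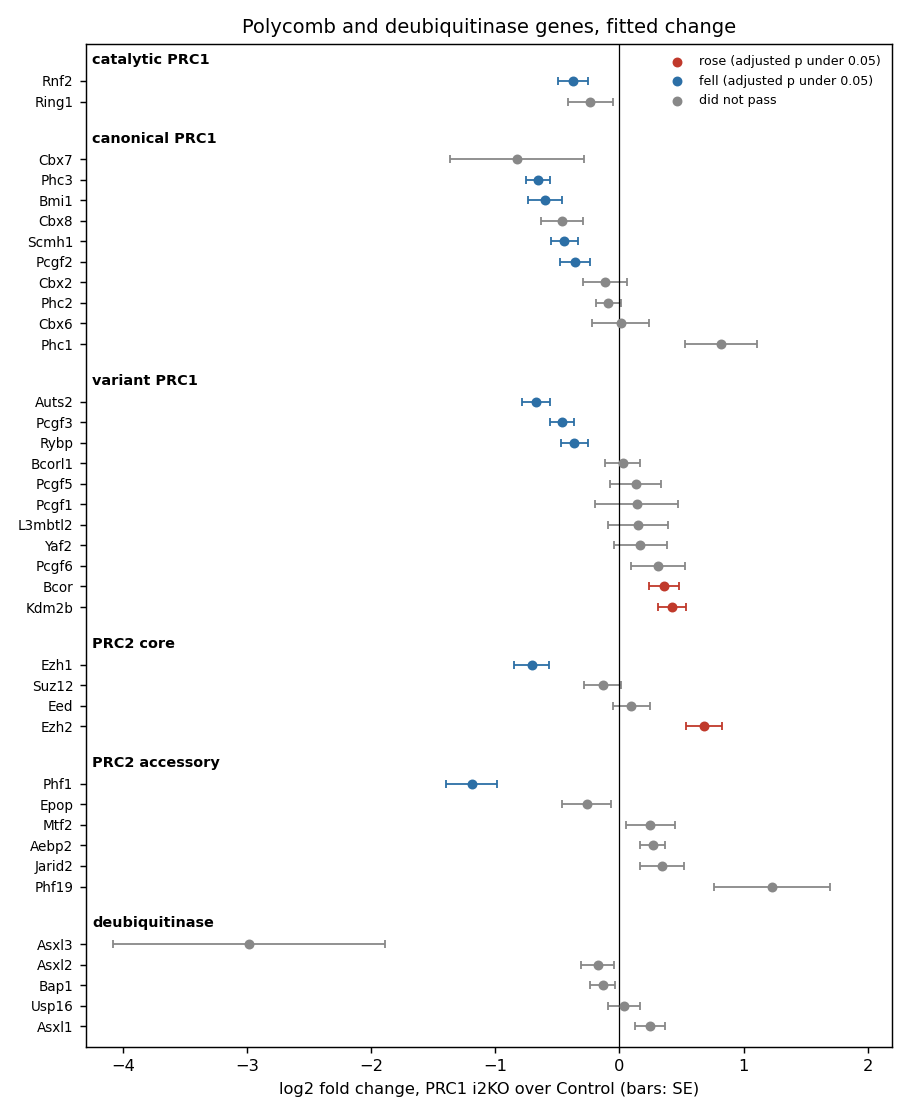
Fitted log2 fold change of each member, PRC1 i2KO over Control (horizontal axis), grouped by complex, with bars for the SE. Red points rose, blue points fell and grey points did not pass; most points lie within 1 log2 unit of 0, and Asxl3, with 7 and 51 reads in the 2 groups, has the widest bar.

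The catalytic genes were read first. Rnf2 (ENSMUSG00000026484), the gene floxed in all 5 libraries, stood at 48.1, 46.6 and 50.2 CPM in PRC1 i2KO and at 67.9 and 57.7 CPM in Control. All 3 PRC1 i2KO libraries lay below both controls, and the fitted level was 1.296-fold lower (log2 fold change -0.37, SE 0.12, edgeR adjusted p = 0.0363). Ring1 (ENSMUSG00000024325), the gene of Ring1a, stood at 19.6, 28.6 and 24.8 CPM in PRC1 i2KO and at 30.3 and 27.5 CPM in Control, and the groups overlapped (log2 fold change -0.24, edgeR adjusted p = 0.36). Reads of Ring1 were present although every mouse was labelled Ring1a-/-. Per length, Ring1 stood at 50.3 ± 5.82 TPM in PRC1 i2KO (SD, n = 3) and 63.0 ± 21.9 TPM in Control (SD, n = 2), and Rnf2 at 50.9 ± 3.29 TPM and 73.0 ± 11.5 TPM in the same groups. Which exons the alleles lack is not given in the labels, and reads summed over a gene do not check either genotype. Rnf2 was no longer called with Control replicate 1 left out (adjusted p = 0.251), nor with PRC1 i2KO replicate 1 (0.0993) or 2 (0.118) left out.

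Genes of canonical PRC1 that passed the test all fell. The class had 4 falls, 0 rises and 6 genes not called, with a median log2 fold change of -0.40. Its called share was 40%, against 33.9% of all tested genes, of which 15.1% fell and 18.8% rose. Phc3 (ENSMUSG00000037652), a Polyhomeotic protein that polymerizes PRC1, stood at 93.6, 94.2 and 89.7 CPM in PRC1 i2KO and at 151 and 140.2 CPM in Control. The groups lay far apart for the spread within them, at a 1.58-fold lower level (log2 fold change -0.66, SE 0.10, edgeR adjusted p = 0.000684). Bmi1 (ENSMUSG00000026739), the PCGF subunit known for holding stem cells from senescence, stood at 35.5, 33.3 and 30.5 CPM in PRC1 i2KO and at 45.4 and 54.3 CPM in Control (log2 fold change -0.60, SE 0.14, edgeR adjusted p = 0.00815). Pcgf2 (ENSMUSG00000018537), its paralog also called Mel18, stood at 54.9, 52.8 and 64.1 CPM in PRC1 i2KO and at 75.7 and 71.3 CPM in Control (log2 fold change -0.36, SE 0.12, edgeR adjusted p = 0.0443). Scmh1 (ENSMUSG00000000085), a homolog of fly Sex comb on midleg, stood at 74.5, 77.7 and 89.9 CPM in PRC1 i2KO and at 107 and 113 CPM in Control (log2 fold change -0.44, SE 0.11, edgeR adjusted p = 0.0128). In each of these 4 genes all PRC1 i2KO libraries lay below both controls. Pcgf2 was called only without PRC1 i2KO replicate 3 among the 5 fits that leave out 1 library (adjusted p from 0.00774 to 0.182), with 0.182 without Control replicate 1, 0.116 without Control replicate 3, 0.137 without PRC1 i2KO replicate 1 and 0.154 without PRC1 i2KO replicate 2. Bmi1 and Scmh1 were lost without Control replicate 3 (0.104 and 0.102), and Scmh1 also without PRC1 i2KO replicate 1 (0.0602) or replicate 2 (0.0595).

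The 4 CBX genes in the list, whose proteins read methylated H3, did not pass in the main fit. Cbx7 (ENSMUSG00000053411) stood at 39.2, 41.0 and 100.4 CPM in PRC1 i2KO and at 84.4 and 129 CPM in Control. PRC1 i2KO replicate 3, the library with the most Cd34 and the highest sum of bulge markers of the 3, lay between the controls, while the other two lay far below. The log2 fold change of Cbx7 was -0.83 (SE 0.54, edgeR adjusted p = 0.334) in all libraries and -1.42 (adjusted p = 0.00206) without PRC1 i2KO replicate 3, within a range of 0.00206 to 0.722 over the 5 fits that leave out 1 library. Cbx6 showed the same library at 174.7 CPM, against 109 and 108 CPM in the other PRC1 i2KO libraries and 118.8 and 140.4 CPM in Control. Cbx8 was at 20.0, 20.6 and 23.4 CPM in PRC1 i2KO and at 25.5 and 33.1 CPM in Control without overlap, short of the threshold at a log2 fold change of -0.46 (edgeR adjusted p = 0.0615; 0.0376 to 0.464 with 1 library left out). Cbx8 was called without PRC1 i2KO replicate 3 (edgeR adjusted p = 0.0376), without the filter on low counts (edgeR adjusted p = 0.0478) and on TPM (limma adjusted p = 0.045). Its log2 fold change was -0.63 without Control replicate 1. Cbx7 was called in a fit with a term for the replicate number (edgeR adjusted p = 0.0153). Cbx2 had a log2 fold change of -0.12 (edgeR adjusted p = 0.652). Of the other Polyhomeotic genes, Phc2 did not pass (108 ± 3.7 CPM in PRC1 i2KO, n = 3, and 115 ± 7.78 CPM in Control, n = 2, SD; log2 fold change -0.09, edgeR adjusted p = 0.527). Phc1 was higher in every PRC1 i2KO library, at 8.71, 7.33 and 7.63 CPM against 4.80 and 4.20 CPM in Control. It was short of the threshold at a log2 fold change of 0.82 (edgeR adjusted p = 0.0559). DESeq2 called it as a rise (adjusted p = 0.0247), as did edgeR on library totals alone (adjusted p = 0.0487).

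Genes of variant PRC1 went both ways. The class had 2 rises, 3 falls and 6 genes not called (45.5% called, against 33.9% of all tested genes), with a median log2 fold change of 0.14. Both rises were subunits of the complex built on Pcgf1, which Kdm2b recruits to CpG islands. Kdm2b (ENSMUSG00000029475) stood at 89.6, 84.8 and 93.9 CPM in PRC1 i2KO and at 61.0 and 71.7 CPM in Control (log2 fold change 0.43, SE 0.11, edgeR adjusted p = 0.0161). Bcor (ENSMUSG00000040363), a corepressor of that complex, stood at 62.2, 63.0 and 67.1 CPM in PRC1 i2KO and at 45.3 and 54.1 CPM in Control (log2 fold change 0.36, SE 0.12, edgeR adjusted p = 0.0441). Their partner Pcgf1 stood at 6.45 ± 1.62 CPM in PRC1 i2KO (SD, n = 3) and 5.98 ± 1.46 CPM in Control (SD, n = 2), and Bcorl1, the paralog of Bcor, had a log2 fold change of 0.03; neither passed. Neither rise passed with Control replicate 1 left out (adjusted p = 0.134 for Kdm2b and 0.263 for Bcor) or on TPM (limma adjusted p = 0.292 and 0.64). That of Bcor did not pass with PRC1 i2KO replicate 1, 2 or 3 left out either (0.0763, 0.0977 and 0.0608).

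Of the 3 falls of variant PRC1, Auts2 and Pcgf3 belong to other complexes of the family. Rybp is not particular to any of them, since variant PRC1 holds Rybp or Yaf2. Auts2 (ENSMUSG00000029673), known for joining PRC1 to coactivators in neurons, stood at 79.2, 90.7 and 88.3 CPM in PRC1 i2KO and at 124 and 149.8 CPM in Control. Its level was 1.59-fold lower (log2 fold change -0.67, SE 0.12, edgeR adjusted p = 0.00166), and the call held in all 5 fits that leave out 1 library. Pcgf3 (ENSMUSG00000033623), the PCGF subunit of 1 of the complexes that hold Auts2, stood at 66.6, 70.3 and 70.6 CPM in PRC1 i2KO and at 93.0 and 97.6 CPM in Control (log2 fold change -0.46, SE 0.10, edgeR adjusted p = 0.00526; 0.0567 without Control replicate 3). Rybp (ENSMUSG00000072872), which takes the place of CBX and stimulates the ubiquitin ligase, stood at 106, 105 and 109 CPM in PRC1 i2KO and at 149.9 and 125 CPM in Control (log2 fold change -0.36, SE 0.11, edgeR adjusted p = 0.0269). Rybp was no longer called with Control replicate 1 left out (0.243), with PRC1 i2KO replicate 1 (0.0903) or 2 (0.0939) left out, or on TPM (limma adjusted p = 0.279). Its paralog Yaf2 (log2 fold change 0.17), Pcgf5 (0.13), Pcgf6 (0.31) and L3mbtl2 (0.15), which acts with Pcgf6, did not pass, and the groups overlapped in all 4.

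**Figure D2:**
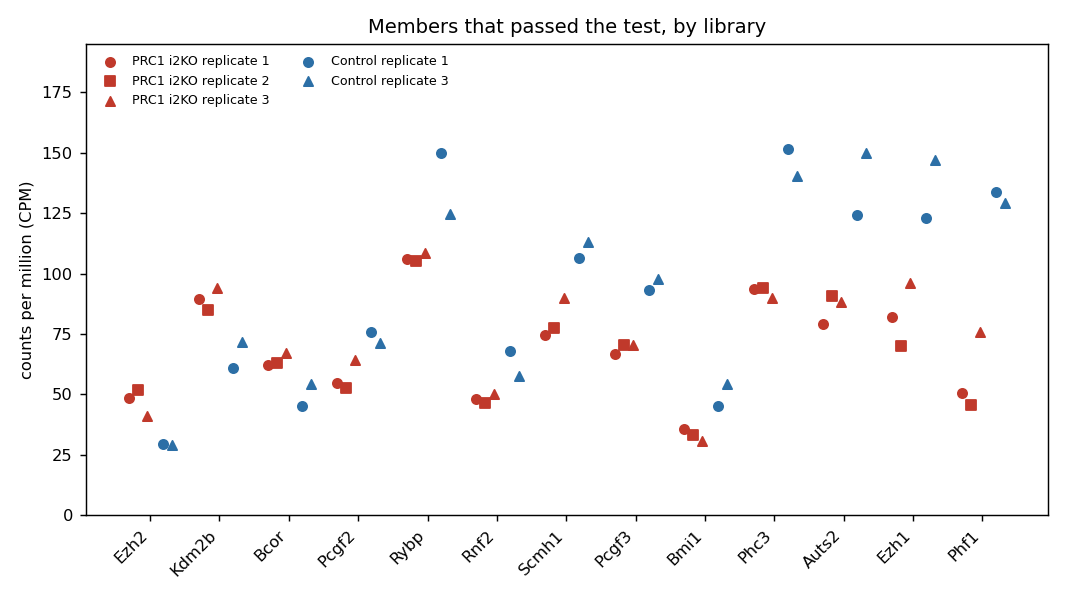
Level in CPM (vertical axis, from 0) of the 13 members that passed the test, ordered from the largest rise to the largest fall, with 1 point per library; red points are PRC1 i2KO, blue points are Control. In all 13 genes the red points lie to one side of both blue points, and PRC1 i2KO replicate 3 (red triangle) is the one nearest to Control in Phf1, at 75.8 CPM.

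In the PRC2 core the paralogous methyltransferases changed in opposite directions. Ezh2 (ENSMUSG00000029687), the more active enzyme and the one typical of dividing cells, stood at 48.7, 51.7 and 40.9 CPM in PRC1 i2KO and at 29.7 and 29.0 CPM in Control, 1.61-fold higher (log2 fold change 0.68, SE 0.14, edgeR adjusted p = 0.00517). Ezh1 (ENSMUSG00000006920), the less active enzyme found also in resting cells, stood at 82.0, 70.2 and 96.1 CPM in PRC1 i2KO and at 123 and 147 CPM in Control, 1.63-fold lower (log2 fold change -0.71, SE 0.14, edgeR adjusted p = 0.00418). The groups did not overlap for either gene. Eed, which binds methylated H3, and Suz12, the scaffold, did not pass: Eed stood at 31.3, 33.2 and 29.1 CPM in PRC1 i2KO and 26.5 and 31.6 CPM in Control, and Suz12 at 64.3, 62.9 and 46.9 CPM in PRC1 i2KO and 64.9 and 62.4 CPM in Control. Their log2 fold changes were 0.10 and -0.14 (edgeR adjusted p = 0.662 and 0.524). Ezh1 missed the threshold with Control replicate 3 left out (adjusted p = 0.051), and Ezh2 missed it on the deposited TPM (limma adjusted p = 0.119). All 14 markers of cycling cells rose in the same libraries, and their part in the changes of Ezh1 and Ezh2 was not tested.

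Among the 6 PRC2 accessory subunits, Phf1 fell and 5 did not pass (16.7% called, against 33.9% of all tested genes). Phf1 (ENSMUSG00000024193), a Polycomb-like protein that helps PRC2 to bind chromatin, stood at 50.8, 45.8 and 75.8 CPM in PRC1 i2KO and at 134 and 129 CPM in Control. Every PRC1 i2KO library was well below both controls, at a 2.29-fold lower level (log2 fold change -1.19, SE 0.21, edgeR adjusted p = 0.00447), a call that all 5 fits that leave out 1 library kept. The other Polycomb-like genes had fold changes above 0 without passing. Phf19 stood at 3.83, 4.28 and 4.11 CPM in PRC1 i2KO, above the 0.985 and 2.30 CPM of Control (log2 fold change 1.23, edgeR adjusted p = 0.0704; 0.0455 without Control replicate 3, and up to 0.262 with another library left out). Mtf2 stood at 41.1, 41.5 and 26.6 CPM in PRC1 i2KO and at 30.5 and 30.6 CPM in Control (log2 fold change 0.25, edgeR adjusted p = 0.376). Here too PRC1 i2KO replicate 3 lay apart, and without it Mtf2 was called (log2 fold change 0.44, adjusted p = 0.0267), as were Jarid2 (0.48, 0.0252) and Aebp2 (0.31, 0.0215). With another library left out, adjusted p reached 0.684 for Mtf2, 0.495 for Jarid2 and 0.251 for Aebp2. With all libraries Jarid2 and Aebp2, which help to stimulate PRC2 and to recruit it, had log2 fold changes of 0.34 and 0.27 (edgeR adjusted p = 0.17 and 0.0643), and Epop, which links PRC2 to elongin, had -0.26 (0.345).

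The promoters of Ezh2 and Ezh1, which changed in opposite directions, and of the other members with a match are shown for the letters of the E2F motif, since E2F factors drive many genes of dividing cells. RefSeq promoters (GRCm38.p6, 250 bases before to 50 after each start) were found for 31 of the 38 members, 44 sequences in all. The motifs TTTGGCGC, TTTCCCGC and TTTCGCGC were searched on both strands, counting overlapping matches separately, and matches are in capitals. Sequences run 5′ to 3′ on the gene's strand, at chr6:47594981-47595280, minus strand for Ezh2, chr11:101226414-101226713, minus strand for Ezh1, chr11:79992856-79993155, plus strand for Suz12 and chr2:34913927-34914226, minus strand for Phf19.
Ezh2: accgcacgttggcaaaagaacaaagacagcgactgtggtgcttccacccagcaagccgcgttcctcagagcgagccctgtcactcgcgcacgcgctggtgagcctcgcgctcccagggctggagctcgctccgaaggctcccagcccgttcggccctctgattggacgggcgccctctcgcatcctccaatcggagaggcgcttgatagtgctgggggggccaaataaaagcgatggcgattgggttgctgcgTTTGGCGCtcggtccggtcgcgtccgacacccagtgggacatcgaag
Ezh1: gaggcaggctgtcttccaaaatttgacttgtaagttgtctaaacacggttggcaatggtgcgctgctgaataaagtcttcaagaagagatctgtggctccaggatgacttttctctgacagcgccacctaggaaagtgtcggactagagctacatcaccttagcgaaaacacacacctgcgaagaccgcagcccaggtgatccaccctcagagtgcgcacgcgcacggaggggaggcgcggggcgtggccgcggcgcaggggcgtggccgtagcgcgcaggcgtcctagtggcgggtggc
Suz12: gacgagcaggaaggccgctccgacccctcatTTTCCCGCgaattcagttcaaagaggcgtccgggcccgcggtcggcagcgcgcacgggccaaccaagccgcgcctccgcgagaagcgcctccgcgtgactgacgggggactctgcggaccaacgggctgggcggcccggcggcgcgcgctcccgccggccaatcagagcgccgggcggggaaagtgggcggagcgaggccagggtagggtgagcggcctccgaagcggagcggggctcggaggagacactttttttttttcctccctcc
Phf19: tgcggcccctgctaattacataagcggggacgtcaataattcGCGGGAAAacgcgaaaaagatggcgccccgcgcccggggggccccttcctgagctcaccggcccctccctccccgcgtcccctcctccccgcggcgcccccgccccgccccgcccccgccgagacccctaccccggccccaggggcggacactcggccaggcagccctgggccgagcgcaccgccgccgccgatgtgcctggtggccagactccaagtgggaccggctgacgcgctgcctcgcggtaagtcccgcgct
A match was found in 3 of the 44 member promoters (6.82%) and in 606 of all 32851 promoters in the table (1.84%). All 3 belong to PRC2 genes: Ezh2 holds TTTGGCGC from base 4 after the start, Suz12 holds TTTCCCGC from position -219, and Phf19 holds TTTCCCGC on the other strand from position -208, with -1 the base before the start. Of these 3 genes Ezh2 rose, Phf19 had higher values in all PRC1 i2KO libraries without passing, and Suz12 did not pass, at a log2 fold change of -0.14. The Ezh1 window holds none of the 3 letter strings. The member promoters held a median of 23 CG dinucleotides, against 7 over all promoters, and the shares above were not matched for base composition.

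The 5 listed deubiquitinase and cofactor genes gave no call, against 33.9% of all tested genes called. Of the H2A deubiquitinase genes read with the partner genes below, Mysm1 fell and Usp3 rose. Of the 5 genes, 0 passed edgeR's test or DESeq2's at an adjusted p under 0.05, and Asxl3 alone had an unadjusted p under 0.05 by edgeR (0.0222). Bap1 (ENSMUSG00000021901), the catalytic subunit, stood at 71.3, 68.2 and 74.7 CPM in PRC1 i2KO and at 76.3 and 80.3 CPM in Control (log2 fold change -0.14, SE 0.10, edgeR adjusted p = 0.35). Usp16 (ENSMUSG00000025616) stood at 46.7, 55.3 and 56.9 CPM in PRC1 i2KO and at 52.8 and 50.8 CPM in Control (log2 fold change 0.04, SE 0.13, edgeR adjusted p = 0.854). The groups overlapped for Usp16, and for Bap1 every PRC1 i2KO library was lower by a small margin. The cofactor genes Asxl1 and Asxl2 had log2 fold changes of 0.25 and -0.18 (edgeR adjusted p = 0.147 and 0.336). Asxl3, the ASXL gene known mainly from brain, was close to silent. It had 0, 2 and 5 reads in PRC1 i2KO and 6 and 45 reads in Control. The ratio of summed reads per depth was 0.111 (95% exact Clopper-Pearson interval 0.0424 to 0.245, counting error only). Asxl3 passed the filter on low counts through its Control reads alone, most of them from Control replicate 3, so this ratio only describes the reads. It did not pass the test (edgeR adjusted p = 0.0617, with 0.0256 without PRC1 i2KO replicate 3 and 0.125 without PRC1 i2KO replicate 2). Without Control replicate 3 it was not tested.

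Levels of different genes were set side by side in TPM, the authors' unit of reads scaled to transcript length and library total. In PRC1 i2KO the highest members were Phc2 (74.4 ± 3.78 TPM), Pcgf2 (69.0 ± 10.1 TPM) and Scmh1 (65.5 ± 12.3 TPM; SD, n = 3), 3 genes whose order is within their spread. In Control they were Scmh1 (106.9 ± 2.16 TPM), Phf1 (101.0 ± 2.37 TPM) and Pcgf2 (94.2 ± 1.12 TPM; SD, n = 2). Phf1 was at rank 13 of 38 in PRC1 i2KO and at rank 2 in Control, Ezh1 at rank 10 and rank 5, and Ezh2 at rank 6 and rank 17. The lowest members were the same in both groups, Phc1, Phf19 and Asxl3 at ranks 36, 37 and 38. Among the 6 PCGF genes, Pcgf2 held 44.3% ± 4.85 of their summed TPM in PRC1 i2KO (SD, n = 3) and 45.9% ± 3.02 in Control (SD, n = 2), while Bmi1 held 14.6% ± 1.93 and 21.9% ± 6.15 in the same groups. Among the Polyhomeotic genes Phc2 held 76.9% ± 1.43 in PRC1 i2KO and 74.4% ± 1.74 in Control.

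**Figure D3:**
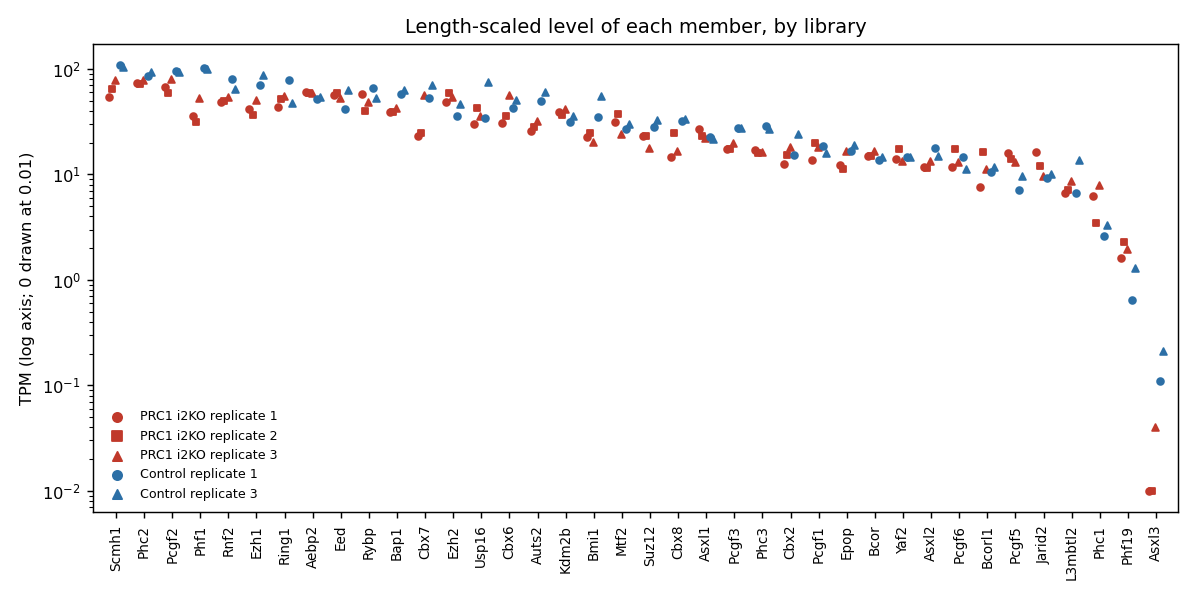
Deposited TPM of each member (vertical log axis) by library, ordered by the mean of the group means, with red points for PRC1 i2KO and blue points for Control. Most members lie between 10 and 100 TPM in every library, and Asxl3 stands far below the rest, at no more than 0.21 TPM.

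Summed TPM was lower in every PRC1 i2KO library for all classes but the PRC2 core. The 10 canonical PRC1 genes summed to 322, 339.9 and 429 TPM in PRC1 i2KO, against 498 and 558 TPM in Control. The catalytic genes summed to 92.2, 102 and 110.03 TPM in PRC1 i2KO and to 160 and 112 TPM in Control. The 11 variant PRC1 genes summed to 224, 229 and 236 TPM in PRC1 i2KO, against 260.1 and 268 TPM in Control. The 6 PRC2 accessory genes summed to 158, 153 and 164 TPM in PRC1 i2KO and to 209 and 214 TPM in Control, and the deubiquitinase genes to 108, 116 and 114 TPM in PRC1 i2KO and to 133 and 175 TPM in Control. Sums of the PRC2 core overlapped, at 169, 178 and 176 TPM in PRC1 i2KO and 176 and 231 TPM in Control. In CPM, which uses no length, the classes that overlapped changed: the deubiquitinase sums did, at 282, 261 and 274 CPM in PRC1 i2KO and 272 and 267 CPM in Control, and those of the PRC2 core did not, at 226, 218 and 213 CPM in PRC1 i2KO and 244 and 269.9 CPM in Control. These sums were not tested. On the TPM scale the median of all tested genes was itself lower by 0.13 on the log2 scale (log2(TPM + 1)), and ribosomal protein genes took 4.85% to 4.87% of reads in PRC1 i2KO and 3.17% to 3.25% in Control.

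Ratios within a library do not depend on that shift. The ratio of TPM was taken for 14 pairs of paralogs or alternative subunits, and in 8 of them the groups did not overlap. No share over other gene pairs was computed, and in CPM 59.5% of single tested genes did not overlap, so the count says nothing particular to these pairs. Ezh2 over Ezh1 was 1.18, 1.61 and 1.08 in PRC1 i2KO, against 0.504 and 0.536 in Control. The ratio rests in part on the length behind the TPM of Ezh2, which was 0.622, 0.553 and 0.489 times that of the median gene in PRC1 i2KO and 0.589 and 0.44 times in Control, so ratios near 1 do not show which gene had more transcripts. The Ezh2 share of the pair was 55.9% ± 5.12 in PRC1 i2KO (SD, n = 3) and 34.2% ± 0.98 in Control (SD, n = 2). Mtf2 over Phf1 was 0.886, 1.19 and 0.458 in PRC1 i2KO, against 0.261 and 0.301 in Control, and Phf19 over Phf1 was 0.0456, 0.0741 and 0.0376 in PRC1 i2KO, against 0.00623 and 0.0132 in Control. Phf1 held 54.3% ± 11.5 of the TPM of the 3 Polycomb-like genes in PRC1 i2KO (SD, n = 3) and 77.5% ± 2.0 in Control (SD, n = 2).

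The other ratios that did not overlap were within the PCGF, PHC, CBX and ASXL families. Pcgf5 over Pcgf3 was 0.906, 0.808 and 0.649 in PRC1 i2KO, against 0.254 and 0.351 in Control. Phc2 over Phc1 was 11.8, 20.7 and 9.82 in PRC1 i2KO and 32.7 and 28.7 in Control, and Phc3 over Phc2 was 0.233, 0.225 and 0.209 in PRC1 i2KO and 0.335 and 0.287 in Control. Cbx7 over Cbx6 was lower in every PRC1 i2KO library (0.746, 0.699 and 1.00, against 1.25 and 1.397 in Control), and Asxl1 over Asxl2 was higher (2.32, 2.03 and 1.66, against 1.27 and 1.45 in Control). The ratio Rnf2 over Ring1 was 1.10, 0.97 and 0.985 in PRC1 i2KO, against 1.03 and 1.36 in Control, and overlapped. So did Bmi1/Pcgf2, Rybp/Yaf2, Cbx7/Cbx8, Bcor/Bcorl1 and Jarid2/Aebp2. The length behind the TPM varied 2.15-fold between libraries for Bcorl1 and 1.45-fold for Rybp. In CPM, which uses no length, the groups overlapped for neither Bcor/Bcorl1 nor Rybp/Yaf2. With 3 libraries against 2, the two-sided exact permutation test cannot go below p = 0.2, which each of the 8 pairs reached (0.35 adjusted over the 14 pairs), so no ratio could pass a threshold of 0.05.

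**Figure D4:**
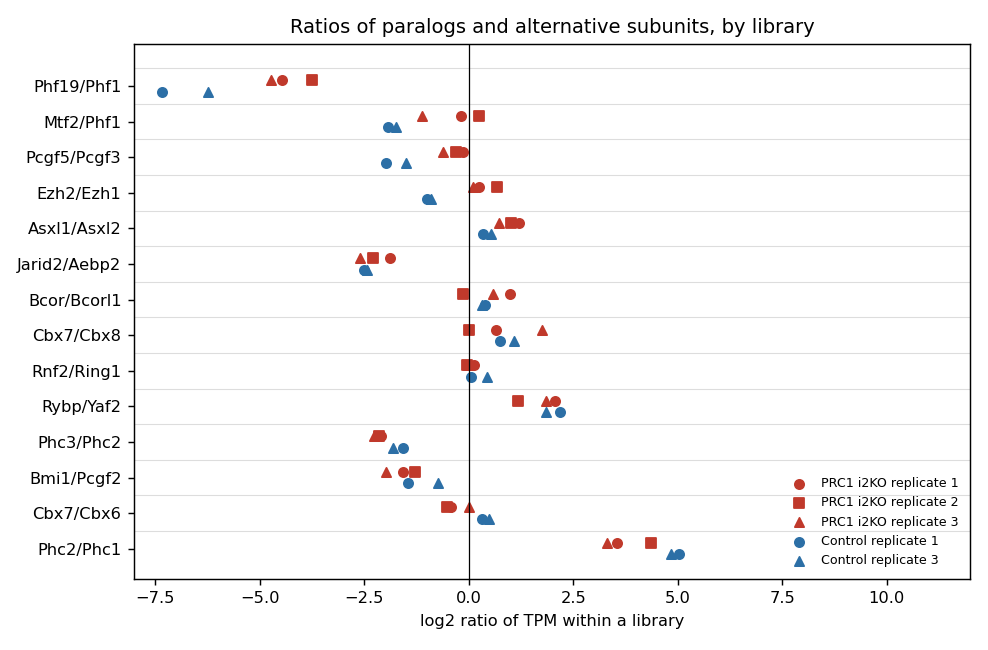
log2 ratio of TPM of the gene named first over the gene named second (horizontal axis; 0 means equal levels), 1 point per library, red for PRC1 i2KO above blue for Control in each line. For Ezh2/Ezh1 the red points lie right of the blue points, and Phf19/Phf1 and Mtf2/Phf1 have the largest differences between group means.

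For a few members the 2 units disagreed, and the length behind the TPM was therefore read back. Reads divided by TPM give the transcript length that the authors' estimate used, up to 1 constant per library, and this was set to the median of 8398 genes with at least 100 reads and 2 TPM in every library. Pcgf5, the PCGF subunit of another Auts2-type complex, had a length of 1.18, 0.983 and 0.953 times that of the median gene in PRC1 i2KO, against 2.05 and 1.66 times in Control. Its CPM overlapped, at 30.1, 21.9 and 19.0 in PRC1 i2KO and 20.4 and 22.4 in Control, whereas its TPM did not, at 15.8, 14.03 and 13.0 in PRC1 i2KO and 7.05 and 9.59 in Control. Bap1 went the other way, at 1.13, 1.10 and 1.15 times the median length in PRC1 i2KO and 0.922 and 0.91 times in Control, and its TPM passed limma's test (adjusted p = 0.0155; log2 difference -0.58). Lengths of Usp16 overlapped between the groups, and Control replicate 3 stood alone at 0.478, against 0.812 to 1.09 in the other 4 libraries. Of 33 members read back, 5 varied by over 1.5 times between libraries (15.2%, and 11.9% of the 8398 genes). Non-overlapping lengths were seen in 31.2% of those genes, and in 5.70% with group means also apart by over 1.2 times, the background for the 2 members of 33 that met both, Pcgf5 and Bap1. The ratio Pcgf5/Pcgf3 rests on this length, since CPM of Pcgf5 overlapped between the groups.

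**Figure D5:**
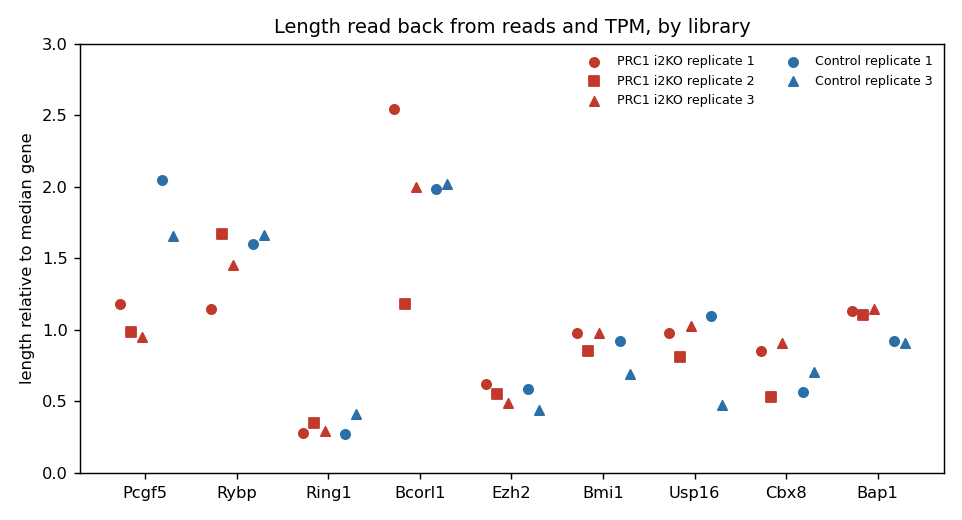
Transcript length behind the deposited TPM, relative to the median gene of each library (vertical axis), for members whose length varied by over 1.4 times between libraries and for Bap1, 1 point per library. The red PRC1 i2KO points of Pcgf5 lie below both blue Control points, and those of Bap1 lie slightly above them.

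A list of 42 further genes, here called partner genes, was read in the same fit. It holds known subunits and cofactors of the same complexes and also separate genes such as the H2A deubiquitinases Mysm1 and Usp3. The test covered 38 of them and called 7 rises and 3 falls, 26.3% of those tested, below the 33.9% of all tested genes, with a median log2 fold change of 0.00. Scml2 (ENSMUSG00000000037), a Sex comb protein related to Scmh1, stood at 11.4, 11.7 and 12.8 CPM in PRC1 i2KO and at 43.1 and 44.7 CPM in Control, 3.66-fold lower (log2 fold change -1.87, SE 0.15, edgeR adjusted p = 1.67e-05). The H2A deubiquitinases Mysm1 and Usp3 changed in opposite directions. Mysm1 stood at 33.9, 36.6 and 41.4 CPM in PRC1 i2KO and at 69.5 and 70.4 CPM in Control (log2 fold change -0.90, SE 0.12, edgeR adjusted p = 0.000441), and Usp3 at 80.2, 82.0 and 68.6 CPM in PRC1 i2KO and 41.0 and 39.3 CPM in Control (log2 fold change 0.94, SE 0.12, edgeR adjusted p = 0.000335). In CPM the groups lay far apart in all 3 genes. In TPM, Scml2 stood at 18.55, 5.07 and 9.97 in PRC1 i2KO and at 39.76 and 24.6 in Control. Mysm1 stood at 8.27, 9.82 and 10.93 TPM in PRC1 i2KO and at 24.5 and 26.84 TPM in Control. Usp3 stood at 42.84, 50.03 and 48.73 TPM in PRC1 i2KO and at 35.62 and 32.57 TPM in Control. The PRC2 histone-binding subunit gene Rbbp7 rose (log2 fold change 0.51, edgeR adjusted p = 0.00772), while its paralog Rbbp4 did not pass (-0.07, 0.652). Tfdp1, the dimer partner of E2F proteins, rose (0.78, edgeR adjusted p = 0.000796), as did Hdac2 (0.53), the casein kinase genes Csnk2b (0.49) and Csnk2a2 (0.34) and Elob (0.45), while Mga, a scaffold of the complex that holds Pcgf6, fell (-0.33, edgeR adjusted p = 0.0263).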

How the data were processed

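RNA was read from 50 ng of poly(A)-selected RNA of sorted cells, per the labels' protocols, in 3 PRC1 i2KO and 2 Control libraries. The authors deposited RSEM-style expected counts and TPM per gene in 1 table, per the file headers. Tools listed in the submitters' processing notes are DESeq2 1.38.2, RSEM 1.3.3 and STAR 2.7.9a, with the build mm39. Annotation and strandedness were not given in the sources used here. Expected counts, fractional for 9.06% of genes, were rounded. After edgeR's filterByExpr, 15665 of 55357 genes were tested by glmQLFTest (edgeR 4.0.16, R 4.3.3) with TMM factors (0.983 to 1.02), PRC1 i2KO over Control, without covariates, with Benjamini-Hochberg adjustment across all of them. CPM uses the TMM-adjusted totals. TPM was tested with limma 3.58.1 on log2(TPM + 1), and DESeq2 1.42.0 was an alternative, as were other scalings and filters, leaving out each library and a replicate block.

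Members, gene lists and tests were chosen with earlier results of these data known. The text names every member and the partner genes that passed, with values by library for called members and the catalytic, core and deubiquitinase enzymes; other genes were named after their values were seen. The transcript length read back from reads and TPM was added after seeing the data. Within groups, libraries differed beyond counting noise (chi-square per degree of freedom 10.1 to 41.8), so none were merged for the tests. Only the Asxl3 ratio and its interval used reads summed within each group, and that interval leaves out the spread between libraries. A count of 3 reads corresponds to 0.0933 to 0.369 CPM. Intervals cover counting error only, since reads carry no molecular identifiers here. Promoters are from RefSeq on GRCm38.p6, not the files' build, so they were matched by symbol alone. Paralogs can share reads, and the counts do not show how such reads were split.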

Additional observations from a re-analysis of the deposited data

How the results depend on the processing

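With 2 controls, 1 library can decide a call, and with 1 control left out the lone one is assumed to vary like the PRC1 i2KO libraries. The 3 members that rose became 5 with library totals alone, 5 with DESeq2 and 0 on log2(TPM + 1) or log2(TPM + 0.1), and 1 to 5 with 1 library left out. The 10 that fell were 5 to 13 with 1 library left out. The 7 partner genes that rose became 2 on either TPM scale and 3 to 9 with 1 library left out. On either TPM scale 2 partner genes fell, 1 of them among the 3 that fell in the main fit. On the TPM scales the median gene moved by -0.13 (pseudocount 1) and -0.15 (pseudocount 0.1) in log2 units. Calls over all genes were 4126 and 3995 on those scales, 5671 with DESeq2, 5875 without the filter and 3322 to 5856 with 1 library left out. With a replicate block, 2 members rose and 8 fell, 6 partner genes rose and 3 fell, and 4437 genes were called; same-numbered libraries deviated together at r = 0.0737 (number 1) and 0.115 (number 3) over genes, and with 2 pairs the numbers are not shown to pair the samples. Phf1, Phc3 and Auts2 were called in all 13 alternatives. With 1 library left out, adjusted p by edgeR was 0.0262 to 0.251 for Rnf2, 0.00982 to 0.104 for Bmi1, 0.00106 to 0.102 for Scmh1, 0.0027 to 0.0567 for Pcgf3, 0.0149 to 0.243 for Rybp, 0.0169 to 0.134 for Kdm2b, 0.0485 to 0.263 for Bcor, 0.000179 to 0.051 for Ezh1 and 0.000704 to 0.0426 for Ezh2. Signs changed for members that passed in neither setting, and the cause was not tested. On log2(TPM + 1) and log2(TPM + 0.1) these were Cbx6 (-0.22 and -0.23), Pcgf1 (-0.018 and -0.020), L3mbtl2 (-0.33 and -0.36) and Usp16 (-0.49 and -0.50), and in the block Pcgf1 (-0.069). Leaving out 1 library at a time gave log2 fold changes on both sides of 0 for Cbx2 (-0.35 to 0.19), Cbx6 (-0.26 to 0.14), Pcgf1 (-0.11 to 0.39), Pcgf5 (-0.057 to 0.26), Bcorl1 (-0.052 to 0.12), L3mbtl2 (-0.14 to 0.57), Eed (-0.018 to 0.24), Suz12 (-0.20 to 0.0025) and Usp16 (-0.011 to 0.13).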
